A study of Mus musculus with 6 samples.

Results

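CO epithelial cluster 7 is a group of luminal epithelial cells from the uteri of control mice. Its members were the cells to which the authors' clustering of CO epithelial cells gave the value 7, and 135 of the 2583 CO epithelial cells with a cluster and counts belonged to it (5.23%, exact Clopper-Pearson 95% interval 4.40 to 6.16). All 135 cells named in the deposited annotation had a column of counts and all 135 carried the annotation epithelial. The CO cells came from 1 single-cell library made from the pooled uteri of a pair of CD-1 mice that had received corn oil as newborns and were collected in estrus at 12 months. The DES library came from pooled uteri of mice of the same strain and age that had received 1 mg/kg/day of diethylstilbestrol (DES), a synthetic estrogen, in the first days after birth and that develop uterine adenocarcinoma. Sections of uterus from a pair of further mice per group (sections A and B of CO, and likewise of DES) were measured by spatial transcriptomics. Mice within a library could not be told apart, so comparisons between clusters below are descriptions of 1 library and carry no test, and intervals cover counting error only. The clusters were also formed on the same counts, so the genes that set cluster 7 apart are a description of what the clustering used.

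The luminal epithelium is the sheet of cells that faces the cavity of the uterus, and it responds to estrogen with growth and secretion. Immediate early genes such as Fos, Jun and Egr1 encode transcription factors that are copied into RNA within minutes of a stimulus, with no need for new protein, and FOS and JUN family proteins pair to form AP-1. Their RNAs are short-lived, and the products of several of them, including the phosphatases DUSP1 and DUSP5 and the ubiquitin editor TNFAIP3, switch off the kinase and NF-kB signals that induced them. These genes are also known to be induced by enzymatic dissociation of tissue. The single cells here were released with trypsin over steps on ice, at room temperature and at 37 °C, whereas the sections were frozen without dissociation. The part of dissociation in the values below was not tested.

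Cluster 7 cells resembled those of the other luminal clusters in depth and in most other features. Their median was 23436 UMIs (unique molecular identifiers, counts of captured RNA molecules) and 4745 genes per cell, against cluster medians of 16393 to 34712 UMIs among the 8 other luminal clusters (0, 1, 2, 5, 6, 9, 10 and 11, 1773 cells pooled). After each cell was thinned to 3000 UMIs, cluster 7 held a median of 1359 genes and the other luminal clusters 1297 to 1379.5. The median share of UMIs from mitochondrially encoded genes was 15.1%, the second highest of the 15 CO epithelial clusters after cluster 6 (18.4%), and 34 of the 135 cells (25.2%) lay above 20%, compared with 4.34% of the pooled luminal cells. Scrublet called 0 of the 135 cells doublets (upper exact limit 2.70%) and 5.22% of the CO library. The CO and DES libraries shared 180 cell barcodes, 1 of them in cluster 7.

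The label was matched by most of its markers. Levels are given as CPM, a gene's pooled UMIs from every cell of a group per 1000000 UMIs of the group. Epcam, an epithelial adhesion protein, stood at 1179 CPM (95% interval 1145 to 1213) in cluster 7 and at 1043 in the pooled luminal clusters. Cdh1, which encodes E-cadherin, stood at 392 CPM against 247. The 6 epithelial markers summed to 6789 CPM, inside the range of 6114 to 7403 over the other luminal clusters, and 8 luminal markers used in the study summed to 897 CPM, inside 499 to 1082. A further list of luminal genes summed to 16140 CPM, below the lowest of the other luminal clusters (18418), which followed Sprr2f, a small proline-rich protein induced by estrogen (9868 against 17324 CPM). Markers of other cell types were at low summed levels: basal cells 3.06 CPM, T and NK cells 1.53, endothelium 6.38, neutrophils 7.65, pericytes 13.3, smooth muscle 14.5, B and plasma cells 40.3 and mesothelium 57.9, each within the range of the other luminal clusters. The stromal list summed to 363 CPM, the myeloid list to 528 and the red cell list to 1450, also within the ranges of the other luminal clusters (288 to 674, 354 to 648 and 1254 to 1601). Members without a UMI numbered 1 of 4 basal markers (Trp63), 3 of 7 T and NK, 1 of 5 B and plasma (Ms4a1), 1 of 4 pericyte, 1 of 5 neutrophil, 2 of 7 myeloid (Adgre1 and C1qb) and 6 of 10 motile cilia genes. Of the myeloid sum, 478 CPM came from Cd14. Cluster 9 held the upper end of the T and NK, endothelial, neutrophil, pericyte, B and plasma, mesothelial and stromal ranges. After it, the next highest were 7.55 CPM for pericytes (cluster 2) and 6.02 for endothelium (cluster 0), both below cluster 7. Developing gland genes summed to 2469 CPM (other luminal clusters 539 to 3725) and genes of all gland stages to 32.1 (30.5 to 135). The proposed stem cell list, at 18.4, was just below the lowest (19.0).

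Of 3020 genes with at least 50 CPM in cluster 7 or in the pooled luminal clusters, 135 (4.47%) were at least 2-fold higher in cluster 7 and 10 (0.331%) were at or below 0.5 times the pooled level. The median ratio over all 3020 genes was 1.01, and 50.6% of them had a ratio above 1. Of the 135, 70 reached 50 CPM only in cluster 7, so that they entered through the level that makes them high. Of the 2689 genes with at least 50 CPM in the pooled luminal clusters, 65 (2.42%) were at least 2-fold higher and 44.5% had a ratio above 1. Counts over gene lists below use these 2689 genes, except where members are called measured, which refers to the 3020. Of the 135 genes, 127 were higher in cluster 7 than in every one of the 8 other luminal clusters, as were 26.8% of all 3020 measured genes. Among the 25 genes of largest ratio, 3 (Prss28, Spink1 and Prss29) owed their place to 1 cell and are described separately. The other 22 lay between 3.59-fold and 4.42-fold, and no single cell held more than 10.1% of the UMIs of any of them. The ratio depended on the clusters compared with: over 22 other settings the 22 genes ran from 2.57 (against all other CO epithelial cells) to 10.1 (with cluster 0 left out). They had varied roles, and 5 of the 22 (Fosb, Maff, Atf3, Dusp1 and Egr2) were on the list of immediate early and AP-1 genes, as were 18 of all 3020 measured genes.

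Fosb, a subunit of AP-1, had the largest ratio of the 22. The gene (ENSMUSG00000003545) lies at chr7:19302696-19310051 of mm10, minus strand. It stood at 1033 CPM (1001 to 1065) in cluster 7 and at 234 CPM in the pooled luminal clusters, a ratio of 4.42 (4.26 to 4.58), with 507 CPM in cluster 0 and 24.2 to 423 CPM in the remaining 7 luminal clusters. In thinned cells, 86.7% of cluster 7 and 31.1% of luminal cells held a Fosb UMI (99.3% of cluster 7 unthinned), with 25.8% in mesothelial cells. The signal was spread over the cluster, with a median of 8.97 Fosb UMIs per 10000 and quartiles of 5.72 and 13.5, while the pooled luminal median was 0.47.

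Epha2, a receptor tyrosine kinase for ephrins, stood at 130 CPM against 30.7 (ratio 4.22, 3.81 to 4.66). Hbegf, a ligand of the EGF receptor, stood at 771 CPM (744 to 799) against 196, and a Hbegf UMI was found in 78.5% of thinned cluster 7 cells, 26.9% of thinned luminal cells and 4.97% of mesothelial cells thinned to the same depth (99.3% of cluster 7 unthinned). Plaur, the urokinase receptor, was 3.70-fold higher at 69.1 CPM, and Gprc5a, an orphan receptor, was 3.68-fold higher at 184 CPM. For all of these genes cluster 7 lay above each other luminal cluster.

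Tnfaip3, which restrains NF-kB, stood at 434 CPM (414 to 455) against 110, a ratio of 3.96 (3.75 to 4.18). The MAP kinase phosphatases Dusp5 (218 against 53.2 CPM) and Dusp1 (276 against 72.5 CPM) were 4.09-fold and 3.81-fold higher. Trib1, a pseudokinase that scaffolds a ubiquitin ligase, was 3.85-fold higher at 273 CPM.

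Of the remaining leading genes, Maff and Atf3 encode basic leucine zipper proteins and Egr2 a zinc finger protein. Maff stood at 259 against 63.0 CPM, Atf3 at 394 against 99.9 and Egr2 at 59.9 against 16.7. Cldn4, a tight junction claudin, stood at 584 against 162 CPM (ratio 3.59, 3.43 to 3.76), and Pard6b, a component of the apical polarity complex, at 70.4 against 19.3. Ifrd1 (713 CPM), Rnf122 (120), Itpkc (180), Slc26a1 (68.1), Arl5b (162), Arid5a (75), Csrnp1 (92.8) and the clone-named gene RP24-234D9.2 (64.3) completed the group at ratios of 3.69 to 4.2. Among these, Rnf122 encodes a RING-type ubiquitin ligase, Itpkc an inositol trisphosphate kinase and Slc26a1 a sulfate transporter.

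**Figure D1:**
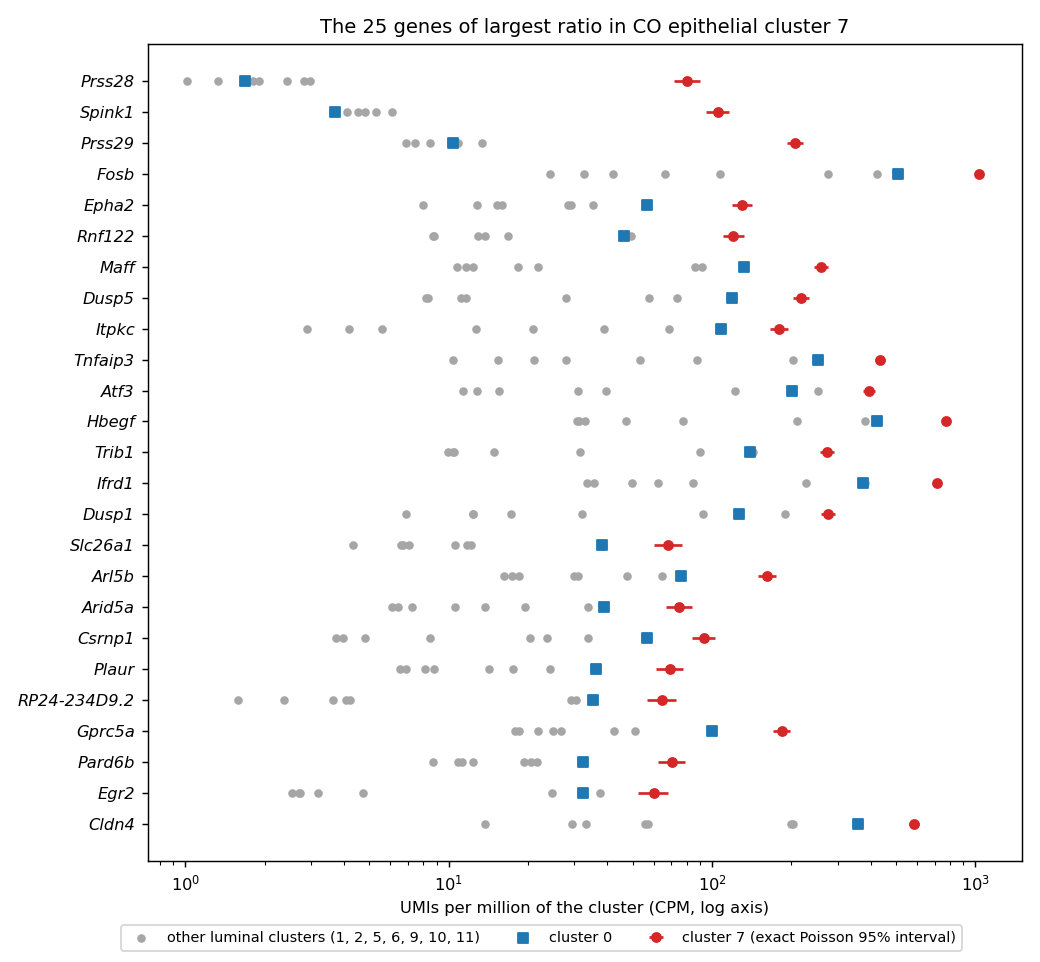
The 25 genes of largest ratio, in order, with the level of each CO luminal cluster in CPM on a log axis; red points are cluster 7 with exact Poisson 95% intervals, blue squares cluster 0 and gray points the other 7 luminal clusters. For the 22 genes from Fosb down, cluster 7 is the highest point and cluster 0 (16 genes), 11 (4) or 5 (2) the next.

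Promoter windows of 5 leading genes are printed as examples, picked because they hold a match, to show where the letters lie in genes that were high together. Each runs from 250 bases before to 50 bases after a RefSeq start (build GRCm38.p6), 5′ to 3′ on the gene's strand, with AP-1 letters (TGANTCA) or the cyclic AMP response element (TGACGTCA) in capitals, both searched on either strand. Dusp1, Maff and Epha2 hold the cyclic AMP response element and lie at chr17:26508423-26508722 (minus strand), chr15:79347270-79347569 (plus) and chr4:141300971-141301270 (plus). Cldn4 and Tnfaip3 hold AP-1 letters and lie at chr5:134946885-134947184 and chr10:19015361-19015660 (both minus).
Dusp1: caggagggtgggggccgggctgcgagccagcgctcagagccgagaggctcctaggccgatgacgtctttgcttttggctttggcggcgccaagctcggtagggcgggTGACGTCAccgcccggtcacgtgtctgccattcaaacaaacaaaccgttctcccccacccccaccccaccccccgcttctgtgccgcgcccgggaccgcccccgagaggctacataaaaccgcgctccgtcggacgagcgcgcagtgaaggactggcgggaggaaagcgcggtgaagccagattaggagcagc
Maff: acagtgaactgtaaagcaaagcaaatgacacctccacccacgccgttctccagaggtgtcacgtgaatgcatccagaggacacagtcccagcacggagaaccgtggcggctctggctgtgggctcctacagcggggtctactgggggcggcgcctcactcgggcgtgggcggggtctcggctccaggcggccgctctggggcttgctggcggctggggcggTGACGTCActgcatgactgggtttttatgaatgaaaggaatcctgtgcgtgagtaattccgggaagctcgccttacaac
Epha2: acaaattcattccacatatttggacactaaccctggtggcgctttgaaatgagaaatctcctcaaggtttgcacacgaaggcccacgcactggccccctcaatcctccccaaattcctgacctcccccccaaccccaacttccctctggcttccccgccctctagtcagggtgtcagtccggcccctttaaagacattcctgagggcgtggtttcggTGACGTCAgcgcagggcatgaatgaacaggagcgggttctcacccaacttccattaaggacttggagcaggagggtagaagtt
Cldn4: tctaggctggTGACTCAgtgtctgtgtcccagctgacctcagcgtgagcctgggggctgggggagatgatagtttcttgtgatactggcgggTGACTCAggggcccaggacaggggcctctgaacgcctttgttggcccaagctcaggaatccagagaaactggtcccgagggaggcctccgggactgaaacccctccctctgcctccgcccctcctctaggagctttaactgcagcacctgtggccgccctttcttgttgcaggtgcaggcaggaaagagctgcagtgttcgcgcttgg
Tnfaip3: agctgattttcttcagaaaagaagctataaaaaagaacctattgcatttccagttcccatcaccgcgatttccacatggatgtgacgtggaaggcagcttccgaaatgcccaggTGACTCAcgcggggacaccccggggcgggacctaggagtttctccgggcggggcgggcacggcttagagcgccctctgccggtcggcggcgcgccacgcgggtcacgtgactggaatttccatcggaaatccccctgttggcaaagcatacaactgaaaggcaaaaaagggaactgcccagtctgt

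The printed windows of Dusp1, Maff and Epha2 carry 1 full cyclic AMP response element each, that of Cldn4 carries 2 AP-1 matches and that of Tnfaip3 carries 1. The table held windows for 19 of the 25 leading genes and 98 of the 135 raised genes. Over the 30 windows of the leading genes, 4 (13.3%) held TGACGTCA and 5 (16.7%) held TGANTCA. In all 32851 windows of the table the shares were 1.79% and 7.81%, and in the windows of the genes measured here 3.46% and 5.20%. The windows of the genes at least 2-fold higher held them at 9.52% and 10.3% (12 and 13 of 126). The 24 windows of the immediate early list belonged to 18 of its genes, whether or not these were measured here. AP-1 letters were in 0 of them and the cyclic AMP response element in 3 (12.5%). No window of the 126 held the NF-kB letters GGGANTTTC, which were in 1.11% of all windows (0.806% of those of measured genes). Only this spelling was searched, so the windows, that of Tnfaip3 included, may hold NF-kB sites in other forms. Of the other 6 motifs searched on both strands, the leading windows held the hypoxia core ACGTG at 33.3% (19.6% of all windows and 27.8% of those of measured genes), the estrogen response element arm GGTCA at 53.3% (40.5% and 39.1%), the ATF4 letters TGATGNAA at 10% (3.97% and 1.98%) and the TATA box TATAAA at 13.3% (13.6% and 8.56%). The heat shock core GAANNTTC and the interferon core TTTCNNTTT were in 0 of the 30 leading windows and in 7.86% and 10.6% of all windows (5.84% and 8.66% of those of measured genes). These are matches of letters in 300 bases and not sites of binding, and several genes have more than 1 window.

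Of 23 listed immediate early and AP-1 genes 17 had at least 50 CPM in the pooled luminal clusters. In cluster 7, 12 of these were at least 2-fold higher (2.42% of all such genes), 0 were at or below 0.5 times and all 17 had a ratio above 1, with a median of 2.32. With Egr2, which reached 50 CPM in cluster 7 alone, the median was 2.39, and over the other settings it ran from 1.98 (cluster 1 left out) to 4.51 (cluster 0 left out). In 17 of these 18, cluster 7 was the highest luminal cluster (26.8% of all measured genes), the exception being Ier2 (371 CPM against 481 in cluster 0). The most abundant members were Fos at 2310 CPM against 997, Klf6, a Kruppel-like factor, at 2014 against 605, Ier3 at 1888 against 1030 and Jun at 1162 against 473. Summed over the 23 genes the level was 15553 CPM in cluster 7 and 6665 in the pooled luminal clusters.

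Counted in each cell, the immediate early genes divided the luminal clusters. The median sum was 152 UMIs per 10000 in cluster 7 (5th to 95th percentile 73.0 to 217), 130 in cluster 0 and 122 in cluster 11. Clusters 1, 2, 6, 9 and 10 had medians of 20.9 to 27.6, and cluster 5 had 37.0 with a 95th percentile of 173. At or above 73.0 per 10000, the 5th percentile of cluster 7, lay 89.0% of cluster 0 cells, 81.4% of cluster 11, 35.7% of cluster 5 and 0.503% of cluster 1. Outside the luminal clusters, gland cluster 3 had a median of 148, with 92.6% of its cells at or above the same value, and clusters 12, 13 and 14 had medians of 71.5, 72.6 and 113. The per-cell level of these genes did not by itself mark cluster 7.

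**Figure D2:**
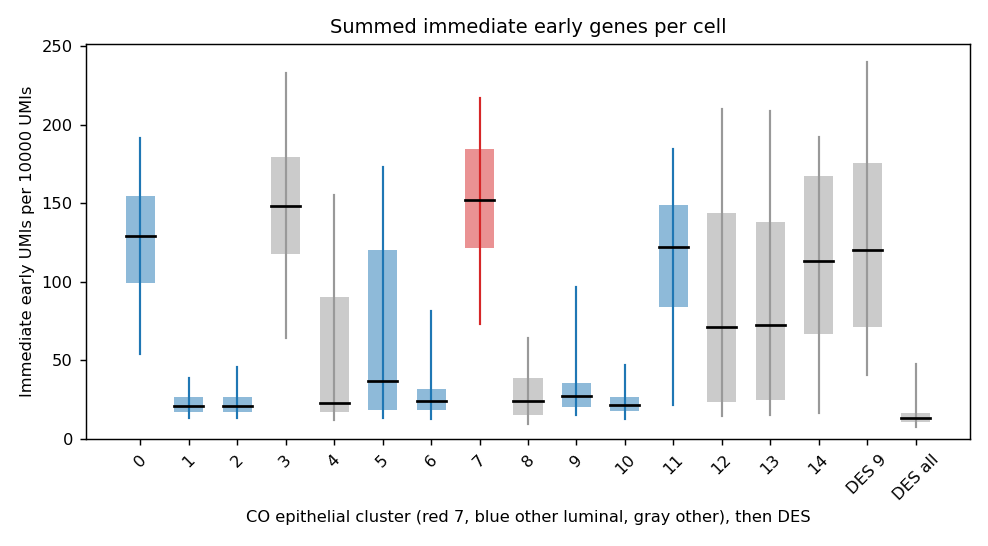
Summed immediate early UMIs per 10000 UMIs of a cell, by CO epithelial cluster and in DES epithelium; boxes span the quartiles, lines the 5th to 95th percentile and black bars the medians (red cluster 7, blue other luminal clusters, gray other clusters). Clusters 7 (152), 3 (148), 0 (130), 11 (122) and 14 (113) have high medians, as does DES cluster 9 (121), and all DES epithelial cells together are at 13.6.

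Of 25 listed NF-kB response genes 8 had at least 50 CPM in the pooled luminal clusters, 0 were at or below 0.5 times and 2 were at least 2-fold higher (2.42% of all such genes), Tnfaip3 and Nfkbiz (547 against 211 CPM). The cytokine gene Il1a (87.7 against 35.3), Birc3 (92.1 against 38.1) and Icam1, an adhesion receptor (68.9 against 29.8), reached 50 CPM only in cluster 7. Cluster 11 was higher for Cxcl1 (182 against 164 CPM) and had levels within the counting interval of cluster 7 or just above it for Birc3 (92.2) and Icam1 (78.4). Lcn2, an abundant secreted lipocalin, stood at 6497 CPM in cluster 7 against 8495, and Sod2 at 79.8 against 99.4. The 8 genes had a median ratio of 1.76, but the whole list summed to 9438 CPM in cluster 7 and 9977 in the pooled luminal clusters, and to 18358 in cluster 11. Against cluster 0 the median over the 11 genes with 50 CPM in cluster 7 or the pooled luminal clusters was 1.1.

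In the list of EGF family ligands, receptors and inhibitors 2 of 11 genes had at least 50 CPM in the pooled luminal clusters and both were at least 2-fold higher (2.42% of all such genes). These were Hbegf and Errfi1, an inhibitor of the EGF receptor (496 against 156 CPM, ratio 3.18, 3.03 to 3.34), while the receptor gene Erbb3, past 50 CPM only in cluster 7, stood at 74.0 against 46.6 CPM. Among the Hippo target genes, whose transcription is driven by YAP and TEAD proteins, Cyr61 was the 1 member of the 9 listed with at least 50 CPM in the pooled luminal clusters and stood at 1072 against 327 CPM. Amotl2 (80.8 against 27.4) and Ctgf (73.2 against 33.9) reached 50 CPM only in cluster 7. In cluster 11 Ctgf was higher still, at 94.6 CPM. Against cluster 0 the measured EGF family and Hippo genes had medians of 1.70 and 1.59, with 0 members at least 2-fold higher. The EGF list summed to 1429 CPM in cluster 7, 845 in cluster 0, 781 in cluster 11 and 759 in gland cluster 3. The Hippo list summed to 1240, 770, 978 and 1048 CPM in the same order.

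Of 10 junction genes with at least 50 CPM in the pooled luminal clusters 1 (Cldn4) was at least 2-fold higher, against 2.42% of all such genes, and all 10 had ratios above 1 (44.5% of all such genes), with a median of 1.44. Among the 10, the desmosome gene Dsp stood at 302 against 196 CPM and Cldn7 at 1299 against 914. Ocln, which encodes occludin, reached 50 CPM only in cluster 7 (51.8 against 27.5). Of 6 matrix and integrin genes, all with ratios above 1 (median 1.58), 1 was at least 2-fold higher, the integrin subunit gene Itgav at 291 CPM (275 to 309) against 103. Itgb6, at 57.6 against 25 CPM, reached 50 CPM only in cluster 7, and the products of both form an integrin heterodimer that activates latent TGF-beta. Vcl, which encodes vinculin and links integrins to actin, stood at 234 against 76.8 CPM, while the actin genes Actb and Actg1 had ratios of 1.21 and 1.14.

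Genes of cholesterol synthesis and uptake had a median ratio of 1.54 over 12 members, 1 of them at least 2-fold higher, 11 of them above 1 and 8 of them highest in cluster 7 among luminal clusters. Of the 2689 genes 2.42% and 44.5% did so for the first and the second, shares that apply to the lists that follow, and 26.8% of the 3020 genes for the third. Against cluster 0 the median of the cholesterol list was 1.08, with 0 members at least 2-fold higher. The list summed to 2499 CPM in cluster 7, 2243 in cluster 0, 2021 in cluster 5 and 2000 in cluster 11. In clusters 1, 2, 6, 9 and 10 it summed to 1325 to 1564. Insig1, which restrains the pathway when sterols are plentiful, had a ratio of 1.73, and Fdps, at 126 against 159 CPM, was the member below 1. Of 2 genes of the senescence and apoptosis list with 50 CPM in the pooled luminal clusters, the BCL2 family gene Mcl1 (463 against 226 CPM) was at least 2-fold higher and Casp8 had a ratio of 1.04. Of 4 such p53 targets 0 were at least 2-fold higher and 1 was above 1, the cell cycle inhibitor gene Cdkn1a (154 against 79.5 CPM). Pmaip1 (116 against 39.0 CPM), Gdf15 (85.7 against 36.9) and Plk2 (103 against 38.8) reached 50 CPM only in cluster 7. Of 9 heat shock genes, 5 were above 1 and 1 was at least 2-fold higher, the co-chaperone gene Dnajb1 (524 against 221 CPM), with a median of 1.14. Neat1, a nuclear long noncoding RNA, was 2.53-fold higher at 1450 CPM and Malat1 was 1.46-fold higher at 14145 CPM.

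Housekeeping lists had median ratios below 1. Of 28 measured nuclear genes of oxidative phosphorylation, 1 had a ratio above 1, the median was 0.80, and 20 were lower in cluster 7 than in every other luminal cluster, as were 20.1% of all measured genes. All 14 measured proteasome genes (median 0.79) and all 25 measured ribosomal protein genes (median 0.84) had ratios below 1, and 0 genes of these 3 lists were at or below 0.5 times. Glycolysis and antioxidant genes had medians of 0.82 each over 11 and 12 measured members. The 12 measured mitochondrially encoded genes moved the other way, all above 1 with a median of 1.26, beside the higher mitochondrial share of the cluster. This direction turned (0.91) when only the cells at or below the cluster's median mitochondrial share were kept, a choice that itself lowers these genes. The interferon list had a median of 0.59 over 7 genes, in which Ifi27l2a stood at 26.8 against 55.5 CPM. Cluster 5 was the highest luminal cluster for this gene (159 CPM) and for the list sum (1704 CPM). The sum in cluster 7 was 830 CPM, inside the range of 607 to 1704 over the other luminal clusters. Gbp2, which encodes a guanylate-binding protein, reached 50 CPM only in cluster 7 (69.9 against 33.4).

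Of 12 measured estrogen-responsive genes 0 were at least 2-fold higher and 1 (Sprr2a3) was at or below 0.5 times, with a median of 1.04. Of all 3020 measured genes 4.47% and 0.331% were so. The sum of the list was 26401 CPM in cluster 7 and 28798 to 41359.6 CPM in the other luminal clusters, and Sprr2f was its most abundant member. The receptor genes Esr1 (268 against 224 CPM) and Pgr (87.0 against 82.3) were both close to the pooled level, and Greb1, a coactivator gene of the estrogen receptor, stood at 87.0 against 62.3 CPM. Among 10 measured mucin and mucosal protein genes (median 1.07), Ltf, which encodes lactoferrin, stood at 2908 against 2634 CPM and complement C3 at 2341 against 1823. Of 5 MHC class I genes (median 0.96) 0 were at least 2-fold higher. H2-Q4, at 59.9 against 28.5 CPM, reached 50 CPM only in cluster 7, and class I genes are near-identical copies whose reads can be split between them. The hypoxia list had a median of 0.87 over 5 genes, with Ddit4 at 45.4 against 65.8 CPM, while the vasodilator gene Adm (101 against 33.7 CPM) reached 50 CPM only in cluster 7. The unfolded protein list had a median of 1.06. The 2 measured Notch pathway genes were at 1.64 (Notch1) and 1.83 (Hes1), of which Notch1 reached 50 CPM only in cluster 7. No gene of the S phase, G2 and M phase, motile cilia or MHC class II lists reached 50 CPM in cluster 7 or the pooled luminal clusters.

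**Figure D3:**
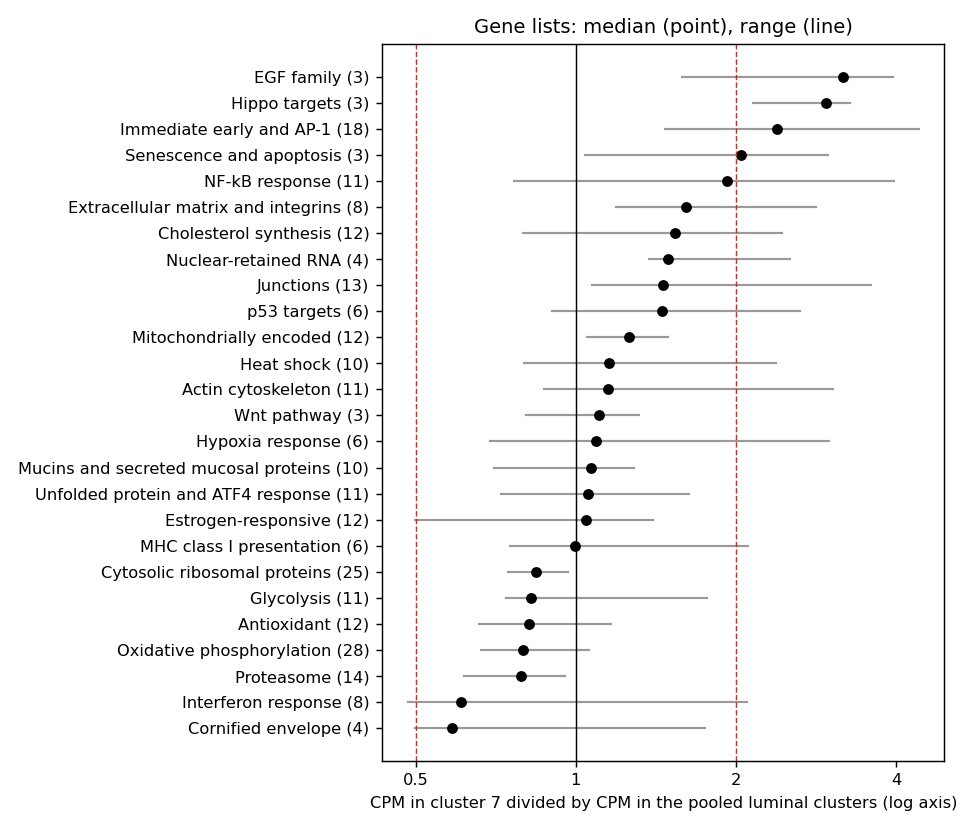
Pathway lists with at least 3 members at 50 CPM or more in cluster 7 or the pooled luminal clusters (number in brackets), without the lists of cell type markers, so that members which reached 50 CPM only in cluster 7 are included; points are the median and lines the lowest to highest ratio of CPM in cluster 7 to CPM in the pooled luminal clusters on a log axis, with dashed lines at 0.5 and 2. Of the lists drawn, the EGF family (3.18), Hippo targets (2.95) and immediate early genes (2.39) have the highest medians. Against cluster 0 these medians are 1.70, 1.59 and 1.27. The cornified envelope list (0.59) has the lowest median against the pooled luminal clusters.

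The 10 genes at or below 0.5 times the pooled level included hair-type and corneal-type keratins and an estrogen-induced cornification gene. Krt87 stood at 30.1 against 67.8 CPM, Krt12 at 26.5 against 59.7 and Krt84 at 71.7 against 149. Kap, which encodes a kidney androgen-regulated protein, stood at 258 CPM (242 to 274) against 562, and Sprr2a3 at 638 (614 to 664) against 1284. The Sprr2 genes are close copies, and their reads may be shared among them. Lrg1, Apobec2, Ifi27l2a and Yam1 were at ratios of 0.40 to 0.48. Cluster 7 was the lowest luminal cluster for 3 of the 10, and for Yam1 it was above cluster 0 (ratio 1.5). Next in order came Prkcdbp (0.51), Sephs2 (0.53), RP23-81C12.3 (0.56), Sprr2f (0.57) and Ifit1 (0.58). The cornified envelope list had a median of 0.59 over 4 measured members, yet its member Sprr1a was higher in cluster 7, at 748 against 427 CPM.

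The ratios of Prss28, Spink1 and Prss29, which encode secreted proteins of mature uterine glands, came from 1 cell. This cell of 77400 UMIs held 306 of the 316 Prss28 UMIs, 395 of the 411 Spink1 UMIs and 760 of the 812 Prss29 UMIs of cluster 7. It was not called a doublet and held 99 Epcam UMIs but 0 Foxa2 UMIs, although Foxa2 encodes a transcription factor of gland cells. In the other 134 cells no cell held more than 3 Prss29 UMIs. Without the cell, the ratios were 1.26 for Prss28, 0.99 for Spink1 and 1.41 for Prss29 (13.5 against 9.57 CPM), and 134 genes were at least 2-fold higher.

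The cluster most like cluster 7 was cluster 0. Over 4312 genes with at least 50 CPM in any CO epithelial cluster, the Pearson correlation of log2(CPM + 1) with cluster 7 was 0.980 for cluster 0, 0.953 for cluster 5 and 0.946 for cluster 9, as a description across genes of 1 library. For the 132 raised genes other than the gland genes, the median ratio of cluster 7 to cluster 0 was 1.65, and 131 of them were above 1. These genes were chosen as high in cluster 7 against a pool in which cluster 0 gave 30.3% of the UMIs. Ratios above 1 to cluster 0 were thus partly fixed by the choice. Over all 2978 genes with at least 50 CPM in cluster 7 or cluster 0 the median was 1.02. The 22 leading genes were 1.64-fold to 2.59-fold above cluster 0, with a median of 1.91. The gap was uneven within the immediate early list. Fos (2310 against 2081 CPM) and Egr1 (937 against 816) were at 1.11 and 1.15 times cluster 0, while Dusp1 (276 against 126), Fosb and Atf3 (394 against 201) were at 2.19, 2.03 and 1.96 times.

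Of 2978 genes with at least 50 CPM in cluster 7 or cluster 0, 17 (0.571%) were at least 2-fold above cluster 0 and 5 (0.168%) at or below 0.5 times. The 17 were the 3 gland genes and Rnf122 (2.59, 2.31 to 2.91), Klf7 (2.48), Tuft1 (2.33), Epha2 (2.29), Cstf3 (2.20), Dusp1 (2.19), Pard6b (2.17), Vcl (2.15), Itgav (2.12), Arl5b (2.12), Cldn10 (2.10), Rapgef2 (2.09), Itgb6 (2.06) and Fosb (2.03). Both subunits of the integrin named above were therefore in this group, with vinculin and the polarity gene Pard6b. Klf7 stood at 87.5 against 35.2 CPM and Cstf3, a subunit of the cleavage stimulation factor for RNA 3′ ends, at 253 against 115. The 5 lower genes were Sprr2d (15.3 against 63.5 CPM), Krt12, Krt84, Kap and Sprr2a3. Counts against cluster 0 depended on the settings, as given in the closing section.

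**Figure D4:**
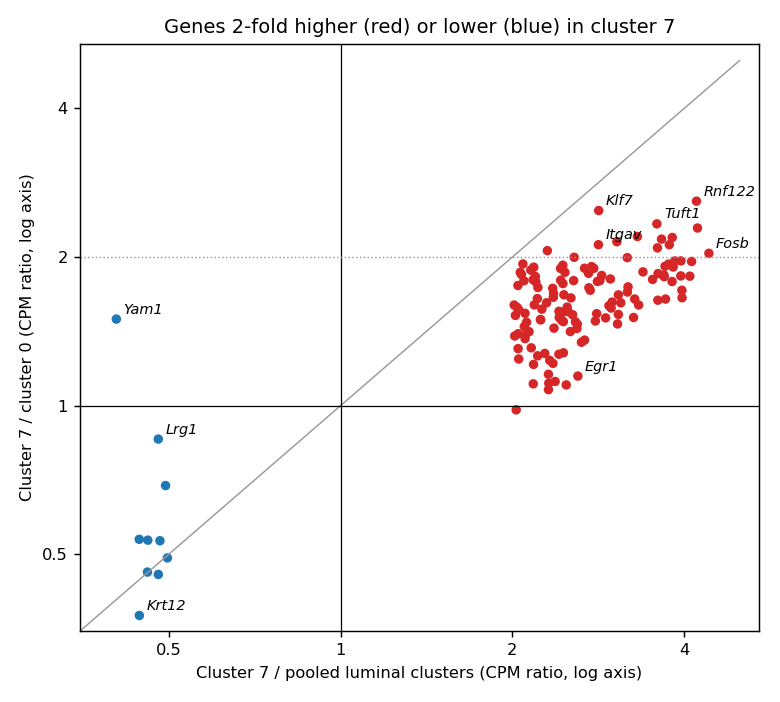
Genes at least 2-fold higher (red) or at or below 0.5 times (blue) in cluster 7 against the pooled luminal clusters, plotted by that ratio (x, log axis) and by the ratio to cluster 0 (y, log axis), without the 3 gland genes of 1 cell; the diagonal marks equal ratios and the dotted line 2-fold over cluster 0. All red points lie under the diagonal and all but 1 above a ratio of 1 to cluster 0, with a median of 1.65, and Yam1 is the 1 lower gene above cluster 0. The red genes were chosen as high in cluster 7, and the median ratio to cluster 0 over all 2978 genes was 1.02.

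Levels varied within cluster 7 together with the mitochondrial share. Across the 135 cells, Spearman's rho between the summed immediate early level and the mitochondrial share was -0.59. Between the immediate early level and the ribosomal protein level it was 0.58. These measures are shares of the same cells' UMIs, which ties them. With UMIs per cell, a total, the immediate early level had a rho of 0.06. In cluster 0 the rho with the mitochondrial share was -0.25. The 68 cells at or below the median mitochondrial share had a median immediate early level of 176 per 10000 (quartiles 151 and 206) and the other 67 cells had 127 (111 and 152). Fosb stood at 1218 CPM in the former and 717 in the latter, and Hbegf at 930 and 500.4. Tnfaip3 (451 and 406 CPM), Neat1 (1448 and 1453) and Itgav (287 and 298) were closer between them. With only the 68 cells kept, 148 genes were at least 2-fold above the pooled luminal clusters.

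Cluster 7 did not stand as a unit in other clusterings. In the authors' integrated clustering of CO and DES epithelial cells, 130 of the 135 cells fell in cluster 1, as did 464 of the 482 cluster 0 cells. When the CO epithelial cells were clustered anew with the Leiden method at resolution 1, 95 of the 135 (70.4%, 61.9 to 77.9) fell in 1 rebuilt cluster of 186 cells, which also held 90 cells of cluster 0. At resolution 0.5, 129 of the 135 shared a rebuilt cluster with 438 cells of cluster 0, and at resolution 2 the rebuilt cluster that held most of them had 59 of the 135 (43.7%) beside 99 cells of cluster 0. Of the raised genes, 116 of 135 were also at least 2-fold higher in the rebuilt cluster of 186 cells. This count is not independent, since 95 of those cells were the cluster 7 cells by which the genes were chosen. The rebuilt cluster's own cells were also left out of the luminal cells compared with.

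In the DES library the leading genes had lower pooled levels in epithelial cells than in cluster 7. They were picked for high levels in cluster 7, so lower levels elsewhere were partly fixed by the choice. No share over all genes was taken here. Over all 4608 DES epithelial cells, the 22 leading genes stood at 0.396 to 50.2 CPM, with a median of 9.99, against 59.9 to 1033 CPM in cluster 7 and 16.7 to 234 in the pooled CO luminal clusters. The immediate early median per cell was 13.6 per 10000, and 10.6 to 15.1 in 15 of the 16 DES clusters. DES cluster 9 (190 cells) was at 121, and 73.2% of its cells lay above the 5th percentile of cluster 7. In that DES cluster Fos stood at 2519 CPM and Atf3 at 414, near or above cluster 7, but Tnfaip3 at 17.5 CPM against 434, Hbegf at 102 against 771 and Epha2 at 20.6 against 130. With 1 library per treatment, treatment and library cannot be told apart.

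Other cell types of the CO library carried part of the pattern. The 22 leading genes were picked for high levels in cluster 7, and no share over all genes was taken for this comparison. Of the 22, 18 were higher in cluster 7 than in mesothelial, stromal, endothelial, lymphocyte and myeloid cells of the library. The other 4 were Atf3 (600.4 CPM in myeloid cells against 394 in cluster 7), Dusp1 (919 in myeloid cells, 432 in lymphocytes and 328 in endothelial cells against 276), Csrnp1 (118 in myeloid cells against 92.8) and Plaur (79.6 in lymphocytes against 69.1). In mesothelial cells, by contrast, Hbegf stood at 15.8 CPM, Cldn4 at 15.6 and Tnfaip3 at 25.

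The sections gave a measure that the clustering had not used and that had replicates. Per the paper, tissue was first examined for luminal and glandular epithelium in both groups and for adenocarcinoma in DES. Chosen blocks were then cored to areas of interest. Differences between DES and CO sections below are thus between chosen areas, and a whole section means all spots of such an area. The paper reports a large tissue fold in CO B and a limited separation of clusters in DES B. It therefore used 1 section per group for most of its analyses, whereas A and B entered alike here. Whole sections held 1357 to 1834 spots and 9117099 to 12506177 UMIs, and a spot covers several cells of different types, so fewer cells of a type and less RNA per cell cannot be told apart. Fosb, at 1033 CPM in cluster 7, was at 1.12, 0.634, 0.877 and 0.607 CPM in sections CO A, CO B, DES A and DES B. Tnfaip3 was at 7.04, 3.81, 8.45 and 5.97 CPM, and Hbegf at 10.8, 9.70, 13.7 and 9.21 CPM. Groups overlapped for these genes. Fosb was an extreme member, and the 23 immediate early genes summed to 1542, 1237, 1603 and 1482 CPM in the same order, beside 15553 in cluster 7 and 1913 in DES epithelial cells. In CO A, Ier3 alone was at 327 CPM and Fos at 60.9. Epcam, for scale, was at 451, 256, 435 and 501 CPM. Section and cell values were normalized separately, so only the order of magnitude can be set side by side: the 20 leading genes tested in the sections had mean levels of 1.55 to 30.6 CPM in CO sections.

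Within CO sections, the 15% of spots with the highest epithelial level (Epcam, Cdh1, Krt8, Krt18 and Krt19) were set against the rest. Of the 20 leading genes, 9 were higher in the epithelial spots of both CO sections and 5 were lower in both, while 38.8% and 40.7% of all 14098 tested genes were. Hbegf was 1.97 and 2.44 times higher there in CO A and CO B, Cldn4 2.18 and 2.30 times and Epha2 1.78 and 2.18 times, as was Epcam by 2.40 and 3.70 times, which had chosen the spots. Atf3 (0.06 and 0.24) and Dusp1 (0.30 and 0.17) were lower in the epithelial spots of both.

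Sections of DES and CO uteri were compared by edgeR's quasi-likelihood test over 14098 genes, 2 sections against 2, which called 376 genes higher (2.67%) and 371 lower (2.63%) in DES at an adjusted p of at most 0.05. Of the 135 genes raised in cluster 7, 129 were tested, 4 were higher in DES, 6 were lower and the others did not pass, while 5.3% of all tested genes passed in either direction. Their median log2 difference (DES minus CO) was -0.10, against -0.01 over all tested genes. The 4 higher genes were Cldn4, Gprc5a, Junb and Icam1. Cldn4 was at 18.6 and 34.9 CPM in CO A and B and 163 and 116 in DES A and B, without overlap, a log2 difference of 2.18 ± 0.35 (SE, edgeR adjusted p = 0.0399). Gprc5a was at 18.6 and 17.4 against 50.5 and 60.7 CPM (log2 difference 1.42 ± 0.20, edgeR adjusted p = 0.0308). The AP-1 gene Junb rose by 1.14 ± 0.16 on the log2 scale, with 45.9 and 48.0 CPM in CO and 126 and 113 in DES (edgeR adjusted p = 0.0306).

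The 6 lower genes were Vcl, Ifi202b, Ccng2, Pik3c2a, Glipr1 and Esyt2. Vcl was at 188 and 197 CPM in CO and 89.7 and 93.1 in DES, a log2 difference of -1.28 ± 0.16 (edgeR adjusted p = 0.0276), but within the 15% most epithelial spots the log2 difference was 0.02. Esyt2, too, fell in whole sections (-1.15 on the log2 scale) and stood at 0.43 in the epithelial spots. Prkcdbp, a caveolar coat protein gene just above the 0.5 limit in cluster 7 (ratio 0.51), was at 613 and 501 CPM in CO and 201 and 181 in DES (log2 difference -1.75 ± 0.20, edgeR adjusted p = 0.0232). Of the 20 leading genes tested, 2 passed. Epha2, at 23.2 and 13.8 against 40.7 and 34.7 CPM, did not pass the test (log2 difference 0.81 ± 0.30, edgeR adjusted p = 0.195). Trib1 did not pass either (0.67 ± 0.20, edgeR adjusted p = 0.124). With either DES section left out, 0 of the 10 genes kept its call, and only 14 genes of all tested passed without DES A and 3 without DES B. Without CO A or CO B, 30 and 27 of the raised genes passed, as did 19.4% and 16.1% of all tested genes.

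**Figure D5:**
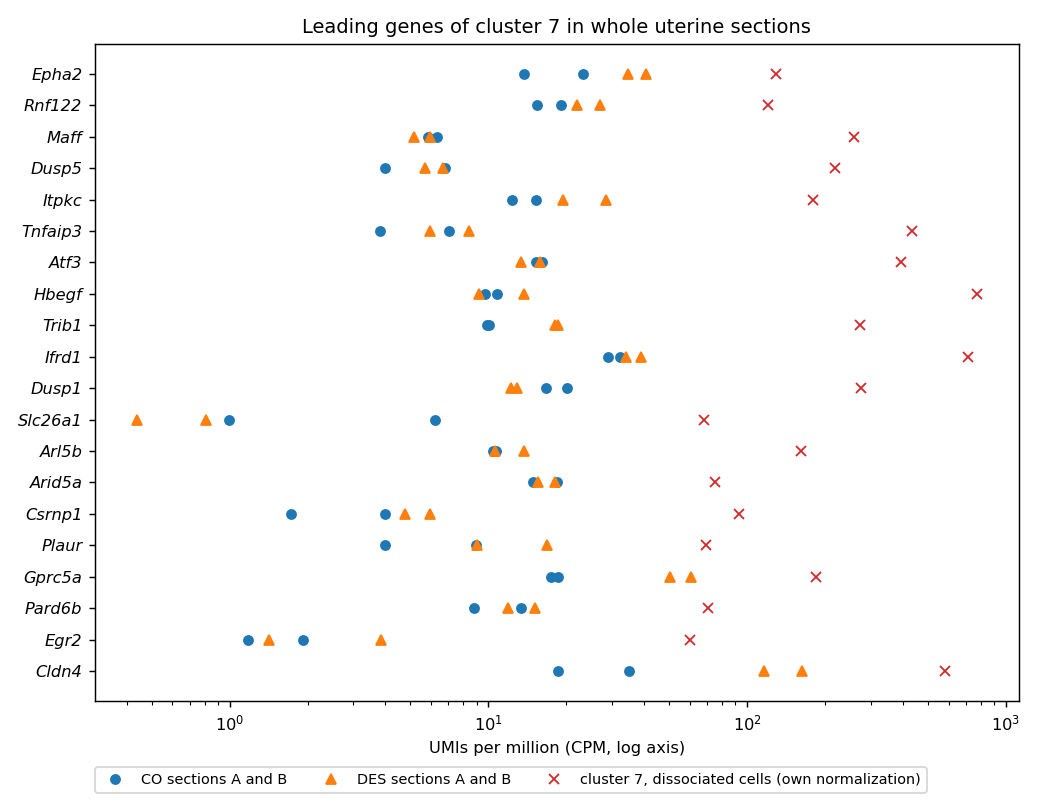
The 20 leading genes of cluster 7 that were tested in the sections, as CPM on a log axis (blue circles CO sections, orange triangles DES sections, red crosses cluster 7 in dissociated cells, normalized separately). Cldn4 (18.6 and 34.9 against 163 and 116 CPM) and Gprc5a are the genes that passed the test, and every section value lies below the cluster 7 value of its gene.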

How the data were processed

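Single-cell UMI counts of 1 CO and 1 DES library and spatial UMI counts of 2 CO and 2 DES sections were deposited by the authors as raw counts. Per the labels and methods, reads were demultiplexed with bcl2fastq 2.20.0.422 and counted on mm10 with Cell Ranger 3.0.1 and Space Ranger 1.2.2, and doublets were removed with scran. The saturation column deposited by the authors in the metadata is a fraction and entered no result. Cell types and clusters are the authors' annotation, and 350 annotated cells had no column of counts.

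Levels (CPM) are a gene's UMIs over all cells of a group relative to the group's total. Intervals were exact Poisson (levels), exact conditional (ratios) or Clopper-Pearson (shares) at 95% and cover counting error only. Ratios were read for genes with at least 50 CPM in either group, as higher at 2-fold and lower at 0.5 times. For shares, cells were thinned to 3000 UMIs. Doublets were called with Scrublet and cells reclustered with Leiden in scanpy 1.11.5 (Python 3.11.15). Sections were summed and tested with edgeR 4.0.16 (R 4.3.3, quasi-likelihood, TMM, filterByExpr, Benjamini-Hochberg adjusted p at most 0.05). The code was also run on simulated counts with the same spread set for every gene, which does not measure its error on these sections. Each section came from 1 mouse. Cells and sections were normalized separately.

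The named genes were the 25 largest and 15 smallest ratios and up to 4 members of a list; further members, and genes named against cluster 0 or in the sections, were chosen after their values were seen. The cluster, the gene lists and the tests were chosen with earlier results of these data known. Promoter windows came from RefSeq (GRCm38.p6). Alternatives changed scaling, minimum level, cell filters, comparison clusters, thinning and clustering for the cells, and DESeq2 1.42.0, size factors, no filter, a block, epithelial spots and left-out sections for the sections. A few genes counted in the totals are not reported here by name.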

Additional observations from a re-analysis of the deposited data

How the results depend on the processing

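Cluster 7 rests on 1 library, and depth limits its low genes. The count of genes at least 2-fold above the pooled luminal clusters (135) ranged from 106 to 194 except with a minimum of 100 CPM (83). The count of lower genes (10) was 22 with a minimum of 20 CPM, 4 with 100 CPM, 24 against all other CO epithelial cells, 30 with thinned cells and 3 with the Leiden cluster. Genes 2-fold above cluster 0 (17) numbered 11 by per-cell means, 28 without the 20 most abundant genes, 34 with 20 CPM, 63 with thinned cells, 30 with the Leiden cluster and 41 with the cells of low mitochondrial share, a setting chosen after seeing the data. Genes lower than in cluster 0 (5) numbered 3 with 100 CPM, 20 with thinned cells and 0 with the Leiden cluster. Median genes per cell were 1359 at 3000 UMIs, 2603 at 8000 and 4745 without thinning. The rebuilt cluster holding most of the cells had 668 cells at resolution 0.5 and 186 at resolution 1. The TGF-beta list's median, from 1 measured gene (0.62), turned to 1.23 without the 20 most abundant genes, 1.22 with 20 CPM and 1.15 with the Leiden cluster, and the cornified envelope median turned to 1.37 with the Leiden cluster. The mitochondrially encoded median (1.26) was 0.91 in the cells of low mitochondrial share. With cluster 0 left out the leading 22 genes reached ratios of up to 10.1 and the immediate early median was 4.51. Against all other CO epithelial cells, which include glands, the ratios were 0.423 for Prss28, 0.47 for Spink1 and 0.333 for Prss29, and the mature gland median was 0.423. Without the 1 cell, a setting also chosen after seeing the data, Spink1 was at 0.991.

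In the sections, edgeR called 747 genes and DESeq2 1761, and 3 to 2819 with 1 section left out, where the lone section is assumed to vary like the other group. In the most epithelial spots the log2 differences of Vcl and Esyt2 were 0.024 and 0.43. The section letters did not pair mice (r = -0.03 between the differences A minus B of the groups). With the replicate block 527 genes were called, and 2 of the 10 called genes of cluster 7 kept their call. The cause of these shifts was not tested.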
